A study of Mus musculus with 21 samples.

Results

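Monocytes that leave the blood and the macrophages they become in the lung interstitium were followed through 8 marker genes in the lungs of 21 C57BL/6 mice. The members are Ms4a7, Cx3cr1, Ccr2, Ly6c2, Plac8, Csf1r, Spi1 and Cd14, taken by symbol from 23238 gene symbols counted in each library, and all 8 passed the filter on low counts. Lungs of mice given vitamin E acetate (VEA), an oily additive of e-cigarette liquids, at 3.12, 6.25 or 12.5 were set against lungs of mice given 10% ethanol, and lungs of mice given propylene glycol (PG), a solvent of such liquids, at 826 or 1100 against lungs of mice given saline. Each of the 7 groups held 3 animals. Instillations of 50 µL into the trachea were given on each of 14 days, and lung tissue was taken on day 15 after the airspaces had been washed out by bronchoalveolar lavage, so cells free in the airspaces had been partly removed. Doses carry no unit here, because samples are labelled in mg/kg while the series text attaches mg/mL to identical figures. The control for VEA was 10% ethanol, and what VEA was dissolved in is not stated. The labels name no transgene or other allele, and the age and sex of the animals are not given in the sources used here.

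Blood monocytes arise in the bone marrow and depend on the transcription factor PU.1, the product of Spi1, and on the growth factor receptor encoded by Csf1r. Classical monocytes carry Ly6C and the chemokine receptor CCR2, which draws them out of the marrow and into inflamed tissue, while patrolling monocytes and many tissue macrophages carry the fractalkine receptor CX3CR1. After entering tissue, classical monocytes lose Ly6C and gain macrophage genes such as Ms4a7. Cd14 encodes a co-receptor for bacterial lipopolysaccharide, and Plac8 is a marker of classical monocytes that other leukocytes and epithelial cells also express.

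RNA came from whole lung tissue with 1 library per animal, read from the 3′ end of transcripts. Total counts per library ranged from 8778028 to 11783151. Levels are given in CPM, counts scaled to the library total after TMM normalisation, and changes as the log2 fold change ± SE of edgeR's quasi-likelihood model. A change was called where its p, adjusted by Benjamini and Hochberg's method across 14727 genes, stayed under 0.05. The pan-leukocyte gene Ptprc (CD45) lay between 66.2 and 129.0 CPM in all libraries, and the defining markers of neutrophils (S100a8, S100a9) and of alveolar macrophages (Marco, Siglecf) were counted in all 21 as well. In whole tissue, fewer cells of a type and less RNA per cell cannot be told apart.

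Promoters of 3 members are shown because their genes carry the contrast described below: Ms4a7 and Ccr2 rose with VEA, and Ly6c2 did not pass the test. Each stretch runs from 250 bases before to 50 bases after a start listed by RefSeq for GRCm38.p6, 5′ to 3′ on the gene's strand. That is the minus strand for Ms4a7 (chr19:11336097-11336396) and Ly6c2 (chr15:75111922-75112221) and the plus strand for Ccr2 (chr9:124101933-124102232). For Ccr2 and Ly6c2 the start used lies inside the RefSeq gene span, which begins on the gene's strand at 124101918 and at 75112066. The Ccr2 window therefore lies wholly within the gene span. Capitals mark GAGGAA, a core of PU.1 recognition sites, searched on both strands.
Ms4a7: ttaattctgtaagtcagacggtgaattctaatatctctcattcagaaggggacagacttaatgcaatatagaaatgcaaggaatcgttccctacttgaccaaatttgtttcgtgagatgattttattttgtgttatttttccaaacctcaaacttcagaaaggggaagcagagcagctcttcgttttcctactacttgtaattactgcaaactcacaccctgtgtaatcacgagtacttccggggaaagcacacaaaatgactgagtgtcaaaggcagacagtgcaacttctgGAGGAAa
Ccr2: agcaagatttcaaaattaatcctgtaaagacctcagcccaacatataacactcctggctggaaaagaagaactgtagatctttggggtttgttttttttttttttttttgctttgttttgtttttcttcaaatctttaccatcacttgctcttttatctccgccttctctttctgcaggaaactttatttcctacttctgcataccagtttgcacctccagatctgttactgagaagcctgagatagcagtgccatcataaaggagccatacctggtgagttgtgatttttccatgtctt
Ly6c2: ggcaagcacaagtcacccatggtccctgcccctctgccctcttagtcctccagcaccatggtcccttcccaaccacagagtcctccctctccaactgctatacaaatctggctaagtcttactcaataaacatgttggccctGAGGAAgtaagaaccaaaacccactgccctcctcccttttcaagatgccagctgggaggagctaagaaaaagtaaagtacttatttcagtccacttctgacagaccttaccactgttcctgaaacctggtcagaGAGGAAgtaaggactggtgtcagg
The letters GAGGAA occurred 1 time in the Ms4a7 window shown, starting 43 bases past the start used. They occurred 2 times in the Ly6c2 window shown, at 108 bases before and 26 bases past the start used there. RefSeq lists a second start for both genes, and the window there held 0 matches for Ms4a7 (chr19:11334646-11334945) and 2 for Ly6c2 (chr15:75111888-75112187), which overlaps the first. The window of Ccr2, which holds no bases before the gene span, did not hold these letters. The same search found 2 matches at the first Plac8 start, 0 at its second and 0 at that of Cx3cr1. Results of the search are given for 5 of the 8 members. Csf1r, Spi1 and Cd14, which rose at the highest VEA dose, are not among them. Whether matches go with rising or unchanged markers therefore cannot be read from these windows. GAGGAA stands in 28.3% of the 32851 promoters of the same length, so a match is common. The longer form GAGGAAGT, which contains GAGGAA and which both Ly6c2 matches make, stands in 3.2% of them. These matches are letters in a window and were not tested as binding sites.

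After VEA at 12.5, 6 of the 8 markers rose and none fell: Ms4a7, Cx3cr1, Ccr2, Csf1r, Spi1 and Cd14. In that comparison 5.48% of the 14727 genes tested rose. The markers were chosen with earlier results of these data known, so they are described beside all genes and not tested against them. The rises ran from 1.49-fold for Csf1r to 6.28-fold for Ms4a7, and in each of the 6 the 3 VEA lungs lay above the 3 ethanol lungs, as 15.3% of all genes did. The median log2 fold change of the 8 markers was 1.20, against -0.01 over all genes. The 2 remaining markers did not pass. Ly6c2 changed by 0.40 ± 0.22 (adjusted p = 0.286) and Plac8 by -0.21 ± 0.33 (adjusted p = 0.779, edgeR). The plot of changes against the controls shows all 8.

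**Figure D1:**
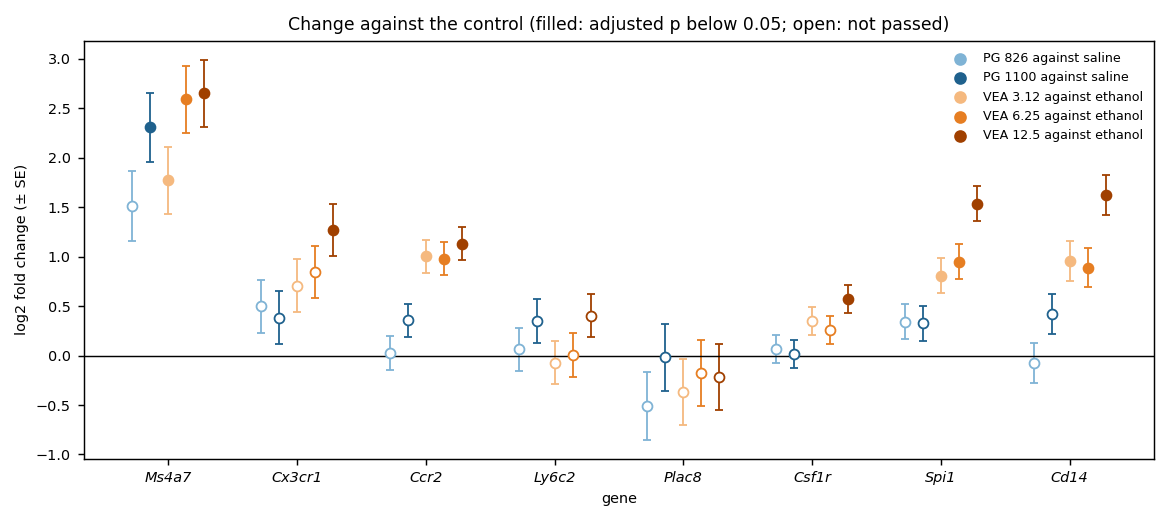
Log2 fold change ± SE (vertical axis) of each marker (horizontal axis) for each dose against its control, from the edgeR fit to 21 libraries, with filled points for an adjusted p below 0.05 and open points otherwise. Ms4a7 is filled for PG 1100 and all VEA doses, Ccr2, Spi1 and Cd14 for all VEA doses, Cx3cr1 and Csf1r for VEA 12.5 only, and Ly6c2 and Plac8 are open throughout.

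At the lower VEA doses the same 4 markers, Ms4a7, Ccr2, Spi1 and Cd14, rose at 3.12 and at 6.25, and none fell. The share of all genes that rose was 3.42% after VEA 3.12 and 3.51% after VEA 6.25. Groups of 3 lay apart and higher for 5 markers at each of these doses, the 4 called ones and Csf1r, against 12.9% of all genes after VEA 3.12 and 12% after VEA 6.25. After PG 1100, 1 of 8 rose, Ms4a7, where 4.09% of all genes rose, and it was also the 1 marker whose PG 1100 lungs all lay above saline, as 10.1% of genes did. After PG 826 edgeR called 0 of 8, where 0.0951% of genes rose. At an unadjusted p below 0.05 that comparison gave 1 of 8 markers, against 9.47% of all genes. That marker was Ms4a7, which DESeq2 called (adjusted p = 0.0173) and limma-voom did not. In PG 826 lungs Ms4a7 and Spi1 lay wholly above saline (7.27% of all genes did) and Plac8 wholly below it (6.67% did).

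**Figure D2:**
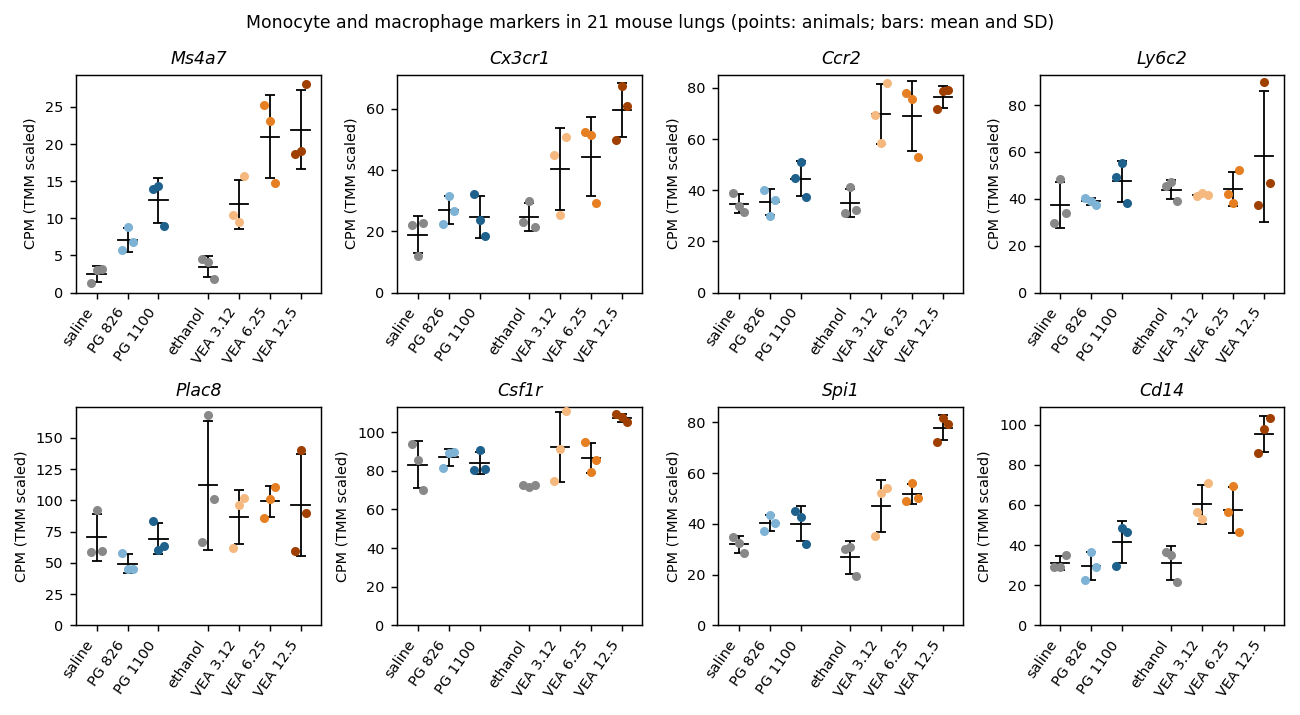
Level of each marker in CPM (vertical axes, from 0) in every lung, with bars for the mean and SD of 3 animals per group and dose increasing to the right of each control. The VEA 12.5 lungs lie above all ethanol lungs for every marker except Ly6c2 and Plac8.

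Spi1 encodes PU.1, which directs monocyte and macrophage development. It stood at 30.2, 30.9 and 19.4 CPM in ethanol lungs, at 35.1, 52.0 and 53.9 CPM after VEA 3.12, at 49.1, 56.1 and 50.1 CPM after VEA 6.25, and at 72.4, 81.7 and 79.4 CPM after VEA 12.5. All 9 VEA lungs lay above all 3 ethanol lungs, and the 12.5 lungs lay above those of the other two doses. The log2 fold change against ethanol was 0.81 ± 0.18 at 3.12 (adjusted p = 0.00408), 0.95 ± 0.18 at 6.25 (adjusted p = 7.36e-04) and 1.54 ± 0.18 at 12.5 (adjusted p = 1.64e-07, edgeR). The call at 3.12 rested on the lowest ethanol lung, animal 14, and without it the change was 0.62 (adjusted p = 0.0536). In the PG arm Spi1 averaged 32.0 ± 3.26 CPM after saline, 40.5 ± 3.15 CPM after PG 826 and 40.0 ± 6.88 CPM after PG 1100 (SD, n = 3), and neither difference from saline passed. Its change after VEA 12.5 exceeded that after PG 1100 by 1.21 ± 0.25 (adjusted p = 0.0197 for the difference of the changes), 1 of 20 genes, or 0.136% of those tested, with a higher VEA effect. That call was lost in 6 of 18 alternatives, among them leaving out ethanol animal 14 (1.02, adjusted p = 0.0848), saline animal 8 (adjusted p = 0.0527), PG 1100 animal 30 (0.0607), or VEA 12.5 animals 68 (0.0692) or 70 (0.0621).

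Of 10 tested genes listed as PU.1 partners and downstream regulators, 3 rose and 1 fell after VEA 12.5. Of all genes, 5.48% rose and 4.23% fell there. Irf8, a partner of PU.1 needed for monocyte development, rose by 0.65 ± 0.17 (adjusted p = 0.00783), a call lost without ethanol animal 12 (adjusted p = 0.0785) or VEA animal 68 (0.0718). Klf4, needed for monocytes and also made by endothelium and epithelium, averaged 153.5 CPM after VEA 12.5 and 245.3 CPM after ethanol and fell by 0.68 on the log2 scale (SE 0.16, adjusted p = 0.00319). The median of the list was 0.31.

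Csf1r encodes the receptor for the macrophage growth factors CSF1 and IL-34. Its levels were 72.8, 71.7 and 72.4 CPM after ethanol, 74.6, 91.4 and 110.7 CPM after VEA 3.12, 94.8, 79.2 and 85.6 CPM after VEA 6.25, and 109.1, 107.9 and 105.1 CPM after VEA 12.5. The ethanol lungs and the VEA 12.5 lungs each kept within a narrow range without overlap. All lungs of the lower doses lay above the ethanol lungs, and the highest of the 3.12 lungs reached the level of the 12.5 lungs. The lowest 3.12 lung (74.6 CPM) stood close to the highest ethanol lung (72.8 CPM), and the saline lungs, from 70.0 to 93.9 CPM, spanned the ethanol range. The rise after VEA 12.5 was 0.57 ± 0.14 (adjusted p = 0.00566), and those at 3.12 (0.35 ± 0.14) and 6.25 (0.26 ± 0.14) did not pass. In the PG arm the means were 83.1 ± 12.2 CPM after saline, 86.9 ± 4.56 CPM after PG 826 and 84.0 ± 5.89 CPM after PG 1100, and the 95% interval of the PG 1100 change ran from -0.28 to 0.31.

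The ligand Csf1 was not called in these comparisons. It averaged 32.6 CPM after VEA 12.5 and 29.9 CPM after ethanol (0.13 ± 0.22, adjusted p = 0.808), and 14.0 CPM after PG 1100 and 23.2 CPM after saline (-0.73 ± 0.24, adjusted p = 0.0516). Il34, the second ligand, rose after PG 1100 (0.88 ± 0.23, adjusted p = 0.0125) and after VEA 6.25 (0.76 ± 0.23, adjusted p = 0.0438), calls lost in 4 and 7 of 12 alternatives, and did not pass after VEA 12.5 (0.59 ± 0.23, adjusted p = 0.104). Without saline animal 6, saline animal 8 or PG 1100 animal 27 the first had adjusted p = 0.0650, 0.0618 and 0.0661. The second was lost without any 1 of ethanol animals 13 and 14 and VEA animals 63, 64 and 65, with adjusted p from 0.0607 to 0.185. Tyrobp, the signalling adaptor DAP12 of macrophage receptors, rose by 1.05 ± 0.19 after PG 1100 and by 0.94 ± 0.19, 0.95 ± 0.19 and 0.93 ± 0.19 after the 3 VEA doses, and all 4 calls held in every alternative run.

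Ccr2 encodes the receptor that brings classical monocytes into inflamed tissue. It was counted at 31.3, 41.3 and 32.3 CPM after ethanol, at 69.5, 58.5 and 81.8 CPM after VEA 3.12, at 77.9, 75.6 and 53.1 CPM after VEA 6.25 and at 71.7, 78.6 and 79.1 CPM after VEA 12.5. Every VEA lung lay above every ethanol lung, while the 3 VEA doses overlapped each other. The changes were 1.00 ± 0.17 (adjusted p = 1.79e-04), 0.98 ± 0.17 (adjusted p = 2.39e-04) and 1.13 ± 0.17 (adjusted p = 1.25e-05) from the lowest to the highest dose. Over the 3 doses the trend for Ccr2 was 0.14 ± 0.16 on the log2 scale from 3.12 to 12.5, with a 95% interval of -0.20 to 0.49. PG 1100 lungs held 44.8, 51.1 and 37.4 CPM, against 38.8, 33.8 and 31.6 CPM in saline lungs (0.35 ± 0.17, adjusted p = 0.232), and the groups overlapped.

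All 4 chemokine genes listed as CCR2 ligands rose after VEA 12.5, where 5.48% of all genes rose, with a median log2 fold change of 3.42. Whether each acts through CCR2 in these lungs was not tested. Ccl7 averaged 10.3 CPM after VEA 12.5 and 0.616 CPM after ethanol (4.03 ± 0.59, adjusted p = 9.16e-06), and Ccl2 averaged 22.6 CPM after VEA 12.5 and 1.49 CPM after ethanol (3.91 ± 0.89, adjusted p = 0.00990). Ccl12 rose by 2.93 ± 0.75 (adjusted p = 0.0112) and Ccl8 by 2.77 ± 0.45 (adjusted p = 4.39e-04). The Ccl2 call was lost without ethanol animal 13 (adjusted p = 0.0534) and the Ccl12 call without ethanol animal 14 (adjusted p = 0.0562). Ccl7 and Ccl8 also rose at 3.12 and 6.25, and the Ccl8 call at 3.12 was lost without ethanol animal 14 (adjusted p = 0.0713) or VEA animal 59 (0.0604). After PG 1100 the median log2 fold change of the 4 ligands was 2.202. Of the 4, 3 had an unadjusted p below 0.05 (edgeR). The PG 1100 lungs lay above all saline lungs for Ccl2 (24 to 81 counts) and Ccl7 (18 to 31 counts). For Ccl12 the groups overlapped. Only Ccl8 passed the adjusted threshold after PG 1100. Its lungs held 38.3, 33.4 and 34.0 CPM, against 4.44, 3.90 and 3.41 CPM in saline lungs (3.17 ± 0.46, adjusted p = 1.96e-04), and Ccr2 itself was not called there.

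**Figure D3:**
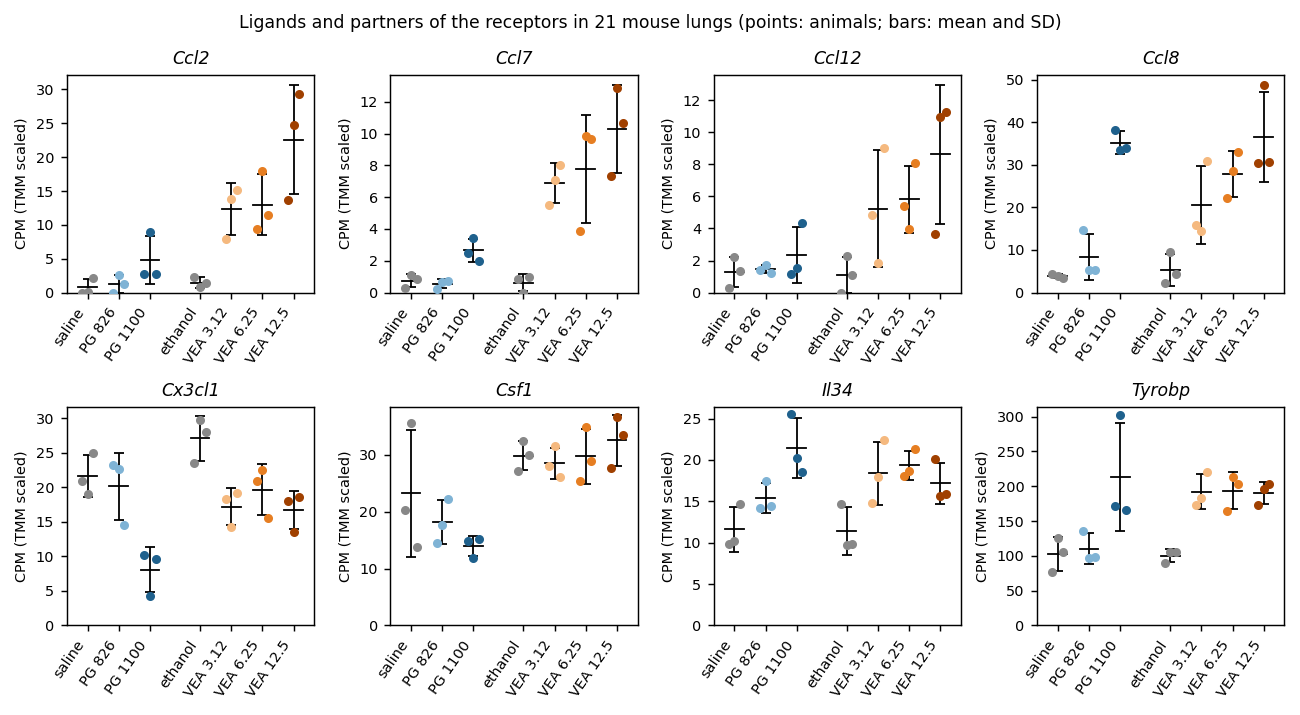
Level in CPM (vertical axes, from 0) in every lung, with bars for the mean and SD of 3 animals per group. Shown are Ccl2, Ccl7, Ccl12 and Ccl8, listed as CCR2 ligands, the CX3CR1 ligand Cx3cl1, the CSF1R ligands Csf1 and Il34 and the adaptor Tyrobp. Ccl8 reaches 33.4 CPM or more in all PG 1100 lungs and 30.3 CPM or more in all VEA 12.5 lungs, while Cx3cl1 is lowest in the PG 1100 lungs.

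Cx3cr1 encodes the fractalkine receptor of patrolling monocytes and many macrophages. It had 22.9, 29.8 and 21.4 CPM after ethanol, 44.8, 25.3 and 51.0 CPM after VEA 3.12, 52.5, 51.3 and 29.4 CPM after VEA 6.25, and 50.0, 67.5 and 61.1 CPM after VEA 12.5. At each lower dose 1 lung, animal 57 at 3.12 and animal 65 at 6.25, stayed within the ethanol range, and at 12.5 all 3 lay above it. The rise after VEA 12.5 was 1.27 ± 0.26 (adjusted p = 0.00199). The changes at 3.12 (0.71 ± 0.26, adjusted p = 0.124) and 6.25 (0.85 ± 0.26, adjusted p = 0.0569) did not pass in the main edgeR fit. They passed without animal 57 (0.95, adjusted p = 0.0255) and without animal 65 (1.07, adjusted p = 0.0170). With no animal left out, edgeR without the low-count filter called both (adjusted p = 0.00677 at 3.12 and 5.34e-04 at 6.25). At 6.25 DESeq2 (adjusted p = 0.0300) and edgeR on the compared groups alone (adjusted p = 0.0163) also called the change. In the PG arm the means were 18.9 ± 6.07 CPM after saline, 26.8 ± 4.57 CPM after PG 826 and 24.8 ± 6.91 CPM after PG 1100, all overlapping.

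The receptor and its ligand Cx3cl1, a chemokine made by epithelium and endothelium, had opposite signs after VEA 12.5. Cx3cl1 was counted at 18.1, 13.6 and 18.6 CPM after VEA 12.5, against 23.5, 29.7 and 28.1 CPM after ethanol (-0.69 ± 0.24, adjusted p = 0.0627), so the groups did not overlap but the gene was not called. After PG 1100 it fell to 10.2, 4.32 and 9.58 CPM, against 20.9, 19.0 and 25.0 CPM in saline lungs (-1.42 ± 0.26, adjusted p = 2.12e-04). Of the 11 genes listed as markers of patrolling monocytes, 2 rose after VEA 12.5 (Cx3cr1 and Itgal) and 1 fell, the transcription factor Nr4a1. Among all genes 5.48% rose and 4.23% fell. The Itgal call was lost without ethanol animal 12 or 13 or VEA animal 66 or 70 (adjusted p from 0.0667 to 0.155). The Nr4a1 call was lost without ethanol animal 13 or 14 or VEA animal 66, 68 or 70 (adjusted p from 0.0507 to 0.259). The median of the list was 0.32.

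Ly6c2 encodes a Ly6C protein of classical monocytes. Its levels were 45.3, 47.1 and 39.3 CPM after ethanol, 41.3, 42.3 and 41.7 CPM after VEA 3.12, 42.1, 38.0 and 52.3 CPM after VEA 6.25, and 37.5, 89.9 and 46.9 CPM after VEA 12.5. Animal 68 stood apart at 89.9 CPM, and the other two VEA 12.5 lungs lay within or near the ethanol range. Without that animal the change after VEA 12.5 was -0.04, against 0.40 ± 0.22 with it. The 95% interval with all lungs ran from -0.06 to 0.87 for Ly6c2, and from 0.77 to 1.49 for Ccr2 in the same comparison.

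The ratio of Ccr2 to Ly6c2 within a library, with an offset of 0.5 CPM on both genes, was computed after their values had been seen. On the log2 scale it was -0.53, -0.28 and -0.19 in the ethanol lungs from lowest to highest. It was 0.46, 0.75 and 0.96 after VEA 3.12 and 0.02, 0.88 and 0.98 after VEA 6.25. After VEA 12.5 it was -0.19, 0.75 and 0.93, with animal 68 at the low end. In 8 of the 9 VEA lungs the ratio lay above the ethanol range, and in animal 68 it lay inside that range, near its top. In PG 1100 lungs it ran from -0.13 to -0.03, inside the saline range of -0.51 to 0.37.

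**Figure D4:**
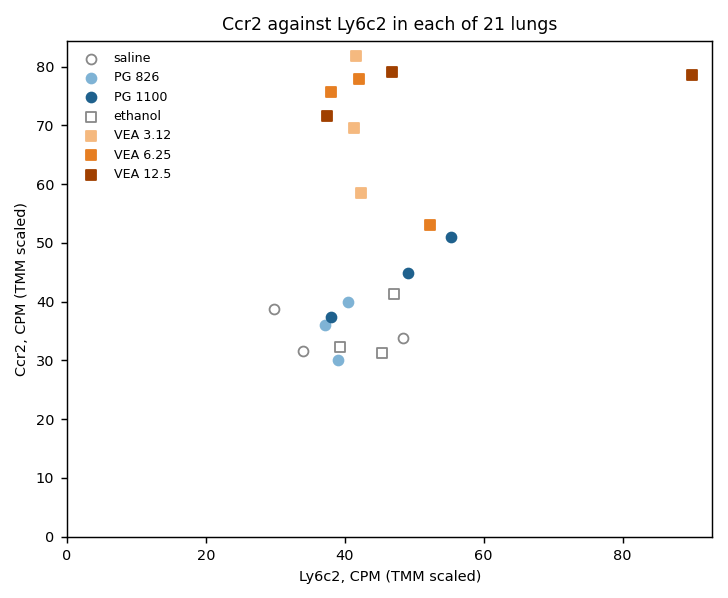
Ccr2 (vertical axis) against Ly6c2 (horizontal axis), both in CPM from 0, with 1 point per lung, circles for the PG arm, squares for the VEA arm and open symbols for the controls. VEA lungs lie between 53.1 and 81.8 CPM of Ccr2, above all other lungs, and animal 68 of VEA 12.5 lies alone at 89.9 CPM of Ly6c2.

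Ly6c2 has a close neighbour, Ly6c1, which lung endothelium expresses. GENCODE M21 holds 7 transcripts of Ly6c1 and 3 of Ly6c2. In the most alike pair the last 300 bases are 96.04% identical (291 of 303 aligned positions). How the authors' counting divided reads between the 2 genes is not given, so Ly6c2 values are uncertain. Ly6c1 averaged 317.3 CPM after VEA 12.5 and 359.7 CPM after ethanol, against 58.1 and 43.9 CPM for Ly6c2. A sum of both symbols therefore mostly follows Ly6c1 and cannot show how Ly6c2 changed. That sum changed by -0.10 after VEA 12.5, -0.16 after VEA 6.25 and -0.00206 after VEA 3.12, none called. After PG 1100 the sum rose by 0.52 ± 0.14 (adjusted p = 0.0162), as Ly6c1 alone did (0.54, adjusted p = 0.0127, and 0.0682 without saline animal 6).

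Plac8 encodes a small cysteine-rich protein and spread widely between animals of a group. It was counted at 66.6, 168.0 and 101.2 CPM after ethanol, 61.9, 96.3 and 102.2 CPM after VEA 3.12, 86.1, 101.0 and 110.5 CPM after VEA 6.25, and 59.5, 140.2 and 90.0 CPM after VEA 12.5. The 4 groups overlapped, and ethanol animal 13, the highest of all 21, set the sign: without it the changes were 0.05, 0.24 and 0.20 in place of -0.37, -0.18 and -0.21. In PG 826 lungs Plac8 had 58.1, 45.1 and 45.0 CPM, against 59.0, 92.2 and 59.6 CPM in saline lungs (-0.51 ± 0.34, adjusted p = 0.698). Across the 12 genes listed for classical monocytes, Ly6c2, Ccr2 and Plac8 among them, 3 rose and 1 fell after VEA 12.5 with a median of 0.24. Among all genes 5.48% rose and 4.23% fell. The risers were Ccr2, the C-type lectin gene Clec4e (3.47 ± 0.53, adjusted p = 1.79e-05) and Chil3 (0.91 ± 0.16, adjusted p = 1.25e-04), which alveolar macrophages also express, and Mgst1, which encodes a glutathione transferase, fell by 0.61 on the log2 scale (adjusted p = 0.00803). The Mgst1 call was lost without ethanol animal 13 (adjusted p = 0.0616) or VEA animal 66 (0.0539).

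Cd14 encodes the surface protein that hands lipopolysaccharide to the TLR4 receptor complex. It stood at 36.6, 35.2 and 21.5 CPM after ethanol, 56.6, 53.0 and 71.0 CPM after VEA 3.12, 56.3, 69.7 and 46.6 CPM after VEA 6.25, and 85.7, 97.7 and 103.2 CPM after VEA 12.5. All VEA lungs lay above the ethanol lungs, and those at 12.5 lay above the rest. The changes were 0.95 ± 0.20 (adjusted p = 0.00266), 0.89 ± 0.20 (adjusted p = 0.00540) and 1.62 ± 0.20 (adjusted p = 7.76e-07) from the lowest dose up. At 6.25 the call was lost without ethanol animal 14 (adjusted p = 0.0566) or VEA animal 64 (0.0599). PG 1100 lungs held 29.7, 48.7 and 46.5 CPM, against 29.1, 29.1 and 34.8 CPM in saline lungs (0.42 ± 0.20, adjusted p = 0.230). The VEA 12.5 change exceeded the PG 1100 change by 1.20 ± 0.28 (adjusted p = 0.0638), which did not pass with edgeR and passed with DESeq2 (adjusted p = 0.0234).

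Of 12 genes listed for lipopolysaccharide recognition, 2 rose after VEA 12.5, Cd14 and the adaptor gene Ticam2, and none fell, with a median of 0.50. Among all genes 5.48% rose and 4.23% fell. Tlr4, the signalling receptor, averaged 13.6 CPM after VEA 12.5 and 9.25 CPM after ethanol (0.55 ± 0.30, adjusted p = 0.281), and Ly96, its MD-2 subunit, 8.71 CPM after VEA 12.5 and 4.56 CPM after ethanol (0.93 ± 0.35, adjusted p = 0.0909). The Ticam2 call at 12.5 was lost without ethanol animal 12 or 13 or VEA animal 68 (adjusted p from 0.0530 to 0.102).

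Ms4a7 encodes a membrane protein of the MS4A family found on macrophages of the interstitium and other tissues. It was counted at 1.28, 3.04 and 3.21 CPM after saline, 5.70, 8.87 and 6.77 CPM after PG 826, and 13.9, 14.4 and 8.91 CPM after PG 1100. The 3 groups did not overlap, but the PG doses were barely apart, at 8.87 CPM (102 counts) and 8.91 CPM (80 counts). Their difference was not called (0.80 ± 0.32, adjusted p = 0.150, edgeR). The rise over saline was 2.31 ± 0.35 after PG 1100 (adjusted p = 1.92e-05), and the change of 1.51 ± 0.35 after PG 826 had adjusted p = 0.0749. In the VEA arm it was at 4.50, 4.10 and 1.83 CPM after ethanol, 10.5, 9.57 and 15.7 CPM after VEA 3.12, 25.3, 23.0 and 14.7 CPM after VEA 6.25, and 18.7, 19.1 and 28.0 CPM after VEA 12.5. Every VEA lung exceeded every ethanol lung, and the rises were 1.77 ± 0.34 (adjusted p = 8.06e-04), 2.59 ± 0.34 (adjusted p = 2.99e-06) and 2.65 ± 0.34 (adjusted p = 8.74e-07). These levels rest on 13 to 41 counts in control lungs and 89 to 333 counts in VEA lungs. The changes after VEA 12.5 and PG 1100 differed by 0.34 ± 0.48, with a 95% interval of -0.69 to 1.38.

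Other macrophage genes rose beside Ms4a7 after PG 1100 and after VEA. The 19 genes listed for interstitial macrophages include Ms4a7, Csf1r and Cx3cr1. Of them edgeR called 0 after PG 826 (4 at an unadjusted p below 0.05). After PG 1100, 10 rose, and 6, 6 and 11 rose after VEA 3.12, 6.25 and 12.5, with none lower. The list medians were 0.72 after PG 1100 and 0.33, 0.27 and 0.57 after the VEA doses. Without those markers the list summed to 2467 to 3009 CPM after ethanol. After VEA 3.12 (2434 to 2962 CPM) and 6.25 (2490 to 3073 CPM) it overlapped that range. After VEA 12.5 it lay above (3100 to 3477 CPM), as PG 1100 (2698 to 3424 CPM) did above saline (2272 to 2344 CPM). C1qa, a chain of complement C1q, averaged 78.4 CPM after PG 1100 and 27.2 CPM after saline (1.53 ± 0.17), and 116.7 CPM after VEA 12.5 and 30.9 CPM after ethanol (1.92 ± 0.17, adjusted p = 2.23e-10). Cd68, a lysosomal membrane protein of macrophages, rose by 1.62 ± 0.22 after PG 1100 and by 1.61 ± 0.22 after VEA 12.5. Of all genes, 4.09% rose after PG 1100, and 3.42%, 3.51% and 5.48% after VEA 3.12, 6.25 and 12.5. In the MS4A family edgeR called 0 of 7 tested genes after PG 826 (1 at an unadjusted p below 0.05). In that family 3 rose after PG 1100, and 3, 2 and 6 rose after the VEA doses from lowest to highest. Among them Ms4a6d rose by 1.99 ± 0.30 after PG 1100 and by 2.27 ± 0.31 after VEA 12.5. The calls named in this group for C1qa, Cd68, Ms4a6d and Ms4a7 held in every alternative run.

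Between the controls, ethanol against saline, edgeR called 0 of the 8 markers and 0% of genes. None of the 8 had an unadjusted p below 0.05, where 892 of all genes did, and DESeq2 called 1 gene and limma-voom 0. Between the PG doses, 1100 against 826, edgeR, DESeq2 and limma-voom each called 0 of 8 markers, while edgeR called 5.55% of genes. Ms4a7 (0.80 ± 0.32, adjusted p = 0.150) and Cd14 (0.49 ± 0.20, adjusted p = 0.165) had an unadjusted p below 0.05, as 17.8% of all genes did, and Cd14 was called without PG 1100 animal 27 (adjusted p = 0.0240). Over the 3 VEA doses all 8 markers had a positive trend, none of them called, and 0% of all genes were called with edgeR. An unadjusted p below 0.05 was found for 5 of 8 markers and 917 genes, 6.23% of those tested. The 5 were Ms4a7, Cx3cr1, Ly6c2, Spi1 and Cd14. The Ly6c2 trend (0.49 ± 0.21) includes animal 68, at 89.9 CPM. The sum with Ly6c1, made mostly of Ly6c1 counts, had a trend of -0.0757. Spi1 had the smallest p, with 0.75 ± 0.17 on the log2 scale from 3.12 to 12.5 (adjusted p = 0.167), and passed with DESeq2 (adjusted p = 0.0335) and limma-voom (adjusted p = 0.0439). Cd14 followed with 0.73 ± 0.19 (adjusted p = 0.272).

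Set against Ptprc in the same library, 3 of the 8 markers lay wholly above ethanol after VEA 12.5, where 2.72% of all genes did on the same ratio. Ptprc itself averaged 113.1 ± 5.67 CPM after VEA 12.5 and 71.6 ± 5.98 CPM after ethanol (0.66 ± 0.15, adjusted p = 0.00337). On the log2 scale the ratio to Ptprc differed from ethanol by 1.89 for Ms4a7, 0.98 for Cd14 and 0.89 for Spi1, without overlap. The differences for Cx3cr1 (0.60) and Ccr2 (0.47) came with overlapping groups, and that of Csf1r was -0.09. At VEA 6.25 the ratios of Ms4a7, Ccr2, Spi1 and Cd14 lay apart and higher (3.21% of all genes did), and at VEA 3.12 those of Ms4a7, Ccr2 and Cd14 did (3.54% of all genes). Ly6c2 relative to Ptprc lay wholly below ethanol after VEA 3.12, with a difference of -0.42, as 33.9% of all genes did. In the PG 1100 lungs Ms4a7 was the 1 marker that stood apart from saline, by 1.84, against 3.21% of all genes.

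**Figure D5:**
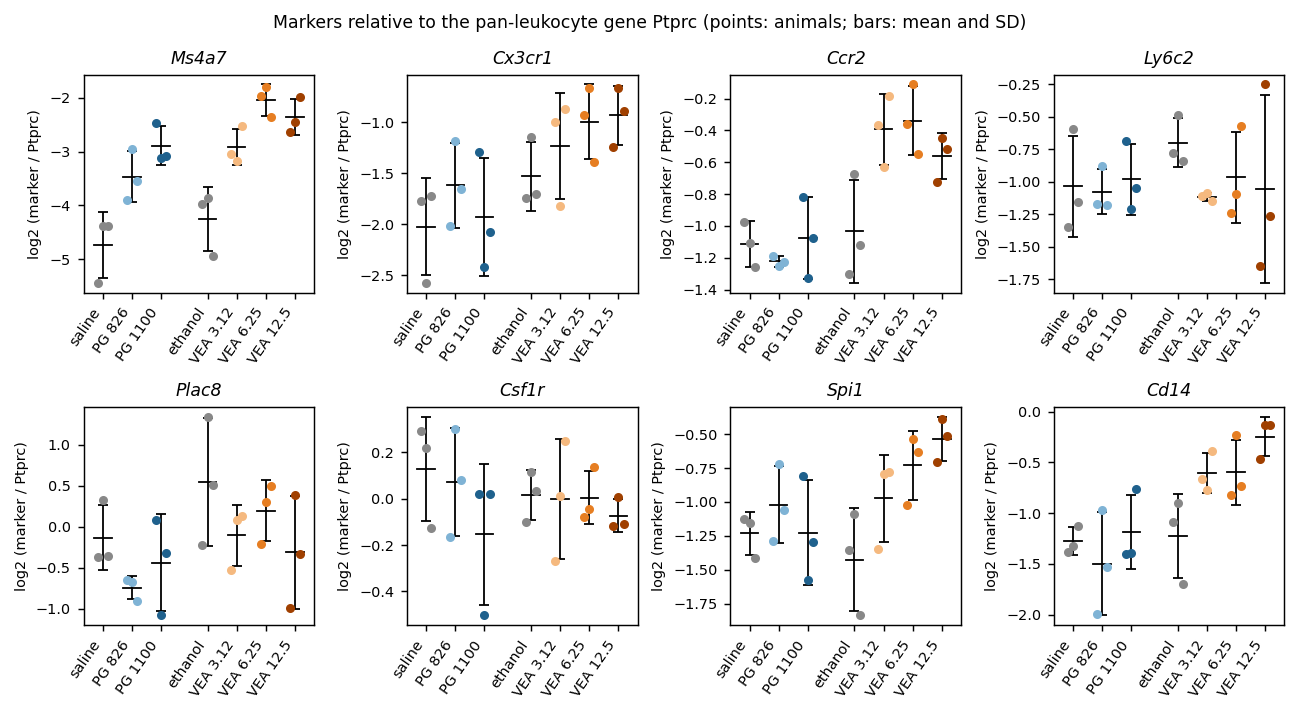
Log2 ratio of each marker to Ptprc in the same library (vertical axes, offset of 0.5 CPM on both genes), with 1 point per lung and bars for the mean and SD of 3 animals. Ms4a7, Spi1 and Cd14 keep their VEA 12.5 lungs above all ethanol lungs, and Csf1r is level, with a difference of -0.09.

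Markers of other cell types were read in the same lungs, where 5.48% of all genes rose and 4.23% fell after VEA 12.5. Of 10 neutrophil genes tested, 1 rose after VEA 12.5, Mmp8, and none fell, and the 12 listed genes in the files summed to 496.7 to 654.0 CPM after VEA 12.5 and 377.6 to 641.4 CPM after ethanol. S100a8 (0.47 ± 0.37, adjusted p = 0.537) and S100a9 (0.36 ± 0.41, adjusted p = 0.684) were not called. Of 16 alveolar macrophage genes 7 rose and 2 fell, with sums of 1856 to 2137 CPM after VEA 12.5 and 1294 to 1580 CPM after ethanol. In that list Marco rose by 2.67 ± 0.39 (adjusted p = 3.76e-04), and Siglecf averaged 9.54 CPM after VEA 12.5 and 13.0 CPM after ethanol (-0.44 ± 0.30, adjusted p = 0.423). Dendritic cell genes rose in 4 of 9 cases, T and NK cell and B cell genes in none, and 3 of 6 endothelial genes fell, where 4.23% of all genes fell, with sums of 1032 to 1097 CPM after VEA 12.5 and 1411 to 1560 CPM after ethanol. Ribosomal Rn45s took 14.6% to 19.2% of counts after VEA 12.5 and 18.5% to 21.3% after ethanol, and haemoglobin transcripts 4.06% to 5.13% after VEA 12.5 and 8.49% to 10.5% after ethanol. The part of these shifts in the marker levels was not tested, apart from a fit without Rn45s and haemoglobin, in which the same 6 markers were called after VEA 12.5.

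The genes whose log2 CPM ran most like each marker over the 21 libraries, among 10181 candidates, differed from marker to marker. These correlations are descriptions over libraries that share treatments, and the value within groups, after group means were removed, is given beside each. Ms4a7 was nearest to the scavenger receptor gene Msr1 (r = 0.93, within groups 0.62), Ccr2 to the leukocyte surface gene Cd52 (r = 0.95, within groups 0.69) and Cx3cr1 to Irf8 (r = 0.91, within groups 0.76). Cd14 was nearest to Pigr, the epithelial receptor that carries IgA (r = 0.94, within groups 0.84). Ly6c2 ran most like Trim59, Irf7 and Herc6, with r from 0.73 to 0.76, and within groups from 0.70 to 0.76. Irf7 and Herc6 are known as interferon-induced genes. Plac8 was nearest to the granule proteoglycan gene Srgn (r = 0.80, within groups 0.77). Csf1r was nearest to Cbfb (r = 0.81) and had Spi1 second (r = 0.81), and Spi1 was nearest to Arpc4 (r = 0.88), with values within groups of 0.74, 0.50 and 0.52 for the 3 pairs. Ly6c2 and Plac8 had r = 0.55 with each other, and 0.62 within groups. Animal 68, the highest VEA 12.5 lung for both (89.9 and 140.2 CPM), is included in these values and in all others given for Ly6c2.

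RefSeq places the 8 genes on GRCm38.p6 as follows: Ms4a7 on 19 (11321039 to 11336146), Cx3cr1 (120048683 to 120068296) and Ccr2 (124101918 to 124109140) on 9, Ly6c2 on 15 (75108161 to 75112066), Plac8 on 5 (100551589 to 100572253), Csf1r (61105572 to 61131139) and Cd14 (36725064 to 36726815) on 18, and Spi1 on 2 (91082374 to 91115759). Reads cannot be assigned with certainty where genes overlap: Cx3cr1 overlaps the lncRNA Gm33858, and Csf1r the lncRNA Gm52352 and the microRNA gene Mir6983.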

How the data were processed

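Per the labels' protocols, 500 ng of total RNA per lung was made into Lexogen QuantSeq 3′ libraries. Per the submitters' processing notes, Bowtie2, bedtools and mm10 were used, and the versions and the annotation are not given in the sources used here. The authors deposited 1 file of raw counts per gene symbol and library, and rows of the 35 repeated symbols were summed, leaving 23238 symbols. Groups came from the sample titles, with 3 animals each, and nothing states whether they share a litter or batch. Animals of a group differed by a chi-square per degree of freedom of 8.14 to 40.5, so no library was counted as a duplicate. A level of 5 CPM stood for 41.1 to 64.8 counts.

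The model was edgeR's (version 4.0.16, under R 4.3.3), with filterByExpr, TMM, a robust quasi-likelihood fit with 1 mean per group over 21 libraries and 14 residual degrees of freedom, and Benjamini-Hochberg adjustment over 14727 genes in each of 9 comparisons. The SE is the log2 fold change over the square root of its F statistic. The alternatives were RLE, DESeq2 1.42.0, limma-voom (limma 3.58.1), omission of the low-count filter, a fit to the compared groups alone, no Rn45s or haemoglobin, each animal left out in turn, Ly6c1 and Ly6c2 summed, and an offset of 2 CPM for the Ptprc ratio. The tools were tested on simulated data. Log2 CPM for correlations used a prior count of 2, among genes averaging 5 CPM or more.

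The 8 markers and all gene lists were chosen with earlier results of these data known. The markers are named throughout, and of each list at most 4 called genes per comparison, those with the smallest adjusted p, beside defining markers, ligands and partners. For likeness the 3 nearest genes of each marker were taken, leaving out unnamed gene models. Tlr4 and Ly96 are named as partners of Cd14. Ly6g, Siglec5, Trbc2, Ms4a4a and Ms4a14 were not analysed here. Results of 1 listed gene are not reported here.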

Additional observations from a re-analysis of the deposited data

Results flagged for a closer look

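Spi1 changed more after VEA 12.5 against ethanol than after PG 1100 against saline. The difference of the changes, called the difference between agents below, was 1.21 on the log2 scale (SE 0.25, adjusted p = 0.0197, edgeR). It was tested directly, but the arms differ in agent, dose and control at once, and these cannot be told apart. Between the controls, Spi1 averaged 26.8 CPM after ethanol and 32.0 CPM after saline (-0.25 ± 0.18, not called). Within the arms the changes were 1.54 ± 0.18 for VEA 12.5 and 0.33 ± 0.18 for PG 1100. All 3 VEA 12.5 lungs lay above all ethanol lungs, and the PG 1100 and saline lungs overlapped. The call was lost in 6 of 18 alternatives, with differences of 1.02 to 1.23 in those 6. No other marker met a rule for a closer look.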

How the results depend on the processing

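No paired analysis was possible because the groups share no animal numbers. Of the changes of single markers under all alternatives, 867 kept their direction and side of the threshold, 22 passed anew, 9 no longer passed and 47 changed sign, none of the last from a called value. The 6 calls after VEA 12.5, the Ms4a7 call after PG 1100 and the Ms4a7 and Ccr2 calls at each VEA dose held in every alternative run. Where a change below has no cause beside it, the cause was not tested.

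Markers called and all genes called became 1 and 73 with DESeq2 and 1 and 162 with no low-count filter for PG 826. For ethanol against saline DESeq2 called 1 gene, and no filter gave 1 marker and 17 genes. No filter gave 1 marker for PG 1100 against 826. For the trend they were 1 and 14 with DESeq2, 1 and 6 with limma-voom, 2 and 84 with no filter, and 2 and 34 with only the groups compared. For the difference between agents they were 2 and 103 with DESeq2, 2 and 198 with no filter, 0 and 14 with only the groups compared, and limma-voom called 8 genes. With only the groups compared, fewer samples gave 444 genes for PG 1100 and 425 for PG 1100 against 826. Plac8 was called with no filter in ethanol against saline (adjusted p = 0.0247) and PG 1100 against 826 (0.0400).

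Leaving out each animal gave 0 markers and 5 to 120 genes for PG 826, 1 and 547 to 1207 for PG 1100, 3 to 5 and 434 to 621 for VEA 3.12, 3 to 5 and 427 to 811 for VEA 6.25, 6 and 873 to 1090 for VEA 12.5, 0 and 0 to 2 for ethanol, 0 to 1 and 259 to 1458 for PG 1100 against 826, 0 and 0 to 13 for the trend, and 0 to 2 and 12 to 48 for the difference between agents.

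Signs of uncalled changes turned as follows. With limma-voom, Plac8 after PG 1100 was 0.0151, Ly6c2 after VEA 6.25 was -0.00705, Ly6c2 in the difference between agents was -0.0776 and Cd14 in ethanol against saline was -0.0368, and that was -0.000226 with only the groups compared. The sum of Ly6c1 and Ly6c2 was -0.16 after VEA 6.25, -0.10 after VEA 12.5, -0.0757 in the trend and -0.63 in the difference between agents. It is made mostly of Ly6c1 counts, so these signs are not those of Ly6c2 itself. The following ranges over all fits that left out 1 animal span 0. For PG 826 they were -0.0742 to 0.13 for Ccr2, -0.0768 to 0.29 for Ly6c2, -0.0458 to 0.16 for Csf1r and -0.26 to 0.0842 for Cd14. For PG 1100 they were -0.17 to 0.23 for Plac8 and -0.0951 to 0.11 for Csf1r. For Plac8 they were -0.63 to 0.0479 after VEA 3.12, -0.44 to 0.24 after VEA 6.25 and -0.57 to 0.20 after VEA 12.5. For Ly6c2 they were -0.13 to 0.10 after VEA 6.25 and -0.0433 to 0.65 after VEA 12.5. For ethanol they were -0.13 to 0.0952 for Ccr2 and -0.13 to 0.21 for Cd14. Between PG doses they were -0.34 to 0.0575 for Cx3cr1 and -0.11 to 0.12 for Spi1. They were -0.26 to 0.40 for Plac8 in the trend, and -0.39 to 0.30 for Ly6c2 and -0.55 to 0.22 for Plac8 in the difference between agents. Depth limits Ms4a7 in control lungs, with 13 to 41 counts.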

Other observations

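Ly6i, a member of the Ly6 gene family, rose at all 3 VEA doses, by 4.06 ± 0.62, 3.96 ± 0.63 and 5.32 ± 0.63 on the log2 scale from the lowest to the highest dose (edgeR, adjusted p = 1.68e-04, 2.35e-04 and 2.24e-06). It averaged 27.9 CPM after VEA 12.5 and 0.687 CPM after ethanol, and 0.582 CPM after PG 1100 and 0.511 CPM after saline. It has close relatives in its family, and reads shared between them were not tested. Of the 7 Ly6 family genes tested, 2 rose after VEA 12.5, Ly6i and Ly6e, and none fell, and Ly6c2 was not among the 2. Among all genes 5.48% rose and 4.23% fell.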
